A study of Mus musculus with 4 samples.

Results

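The genes described here are 8 chemokine and gut-homing receptors, Ccr4, Ccr6, Ccr8, Ccr10, Cxcr3, Cxcr4, Cxcr5 and Gpr15, out of 53379 genes in the expression table. They were chosen by name, with earlier results of these data known, among receptors outside the chemokine receptor cluster of mouse chromosome 9. Not every such receptor is included, and Ccr7 is given with the other receptors below. The mRNA of the 8 was measured by RNA-seq in Treg cells sorted as CD3+CD4+YFP+ from the large intestine (LI) of mice at steady state. KO libraries came from mice with Foxp3 Cre-YFP and 2 floxed copies (Setd2 f/f) of Setd2, the gene of the methyltransferase that places H3K36me3, and control libraries came from mice with Foxp3 Cre-YFP and 1 floxed and 1 intact copy (Setd2 f/+). Both groups carry the Cre, which is expressed from the Foxp3 locus, so that the controls differ from KO in 1 copy of Setd2 in Foxp3-expressing cells, and the controls are themselves heterozygous there. Each group had 2 libraries, and each library was a pool of 2 to 3 mice. The comparison asks how receptor mRNA differs between LI Treg cells of the KO and control genotypes.

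Chemokine receptors are membrane proteins that couple to inhibitory G proteins and turn a gradient of chemokine into directed movement and integrin-dependent arrest. On Treg cells they set which tissue, and which site within it, the cells enter and stay in. GPR15 directs T cells to the large intestine, CCR8 and CCR4 mark tissue-resident and effector Treg cells, CCR6 and CXCR3 are found on Treg cells that accompany type 17 and type 1 responses, CXCR5 leads cells into B cell follicles, CXCR4 holds leukocytes in bone marrow and other sites rich in CXCL12, and CCR10 serves homing to skin and mucosal epithelium.

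Levels are given as FPKM, fragments scaled to transcript length and to the size of the library. They are compared between genes as listed, and how well they rank genes was not tested. In addition, 2172 of the top 5000 ranks carry the same value in all 4 libraries, close to what quantile normalization gives. The sum over all genes lay between 774923 and 774999 FPKM in the 4 libraries, and the number of sequenced fragments is unknown, so no counting interval can be given. Setd2 itself was 38.19 and 27.36 FPKM in the controls and 26.33 and 36.3 FPKM in KO, so whole-gene FPKM did not separate the genotypes. At the protein level, the authors reported loss of Setd2 in splenic KO Treg cells and a strong reduction of H3K36me3 in splenic and LI KO Treg cells. Among markers of the sorted cells, Ctla4 ranged from 1593 to 2310 FPKM, Il2ra from 152.1 to 183.7 FPKM and Cd4 from 130.8 to 220.4 FPKM, whereas Foxp3, the gene whose reporter was sorted on, was listed at 2.62, 5.61, 4.66 and 3.05 FPKM in control 1, control 2, KO 1 and KO 2.

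Ccr8 was the most abundant of the 8 receptors in every library. In both groups the mean levels fell in the order Ccr8, Gpr15, Ccr4, Cxcr3, Ccr6, Cxcr5, Cxcr4 and Ccr10. Neighbours in this order were separated in both libraries of a group, with the exception of Cxcr5 and Cxcr4, whose control values overlapped. Ccr8 lay between percentiles 99.3 and 99.5 of all protein-coding genes in the table, Gpr15 between 95.8 and 97.3, and Cxcr4, the lowest of the receptors tested, between 70.2 and 75.8. Ccr10 was listed at 0.02 FPKM in control 2 and at 0 in the other libraries, and it was therefore not tested.

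**Figure D1:**
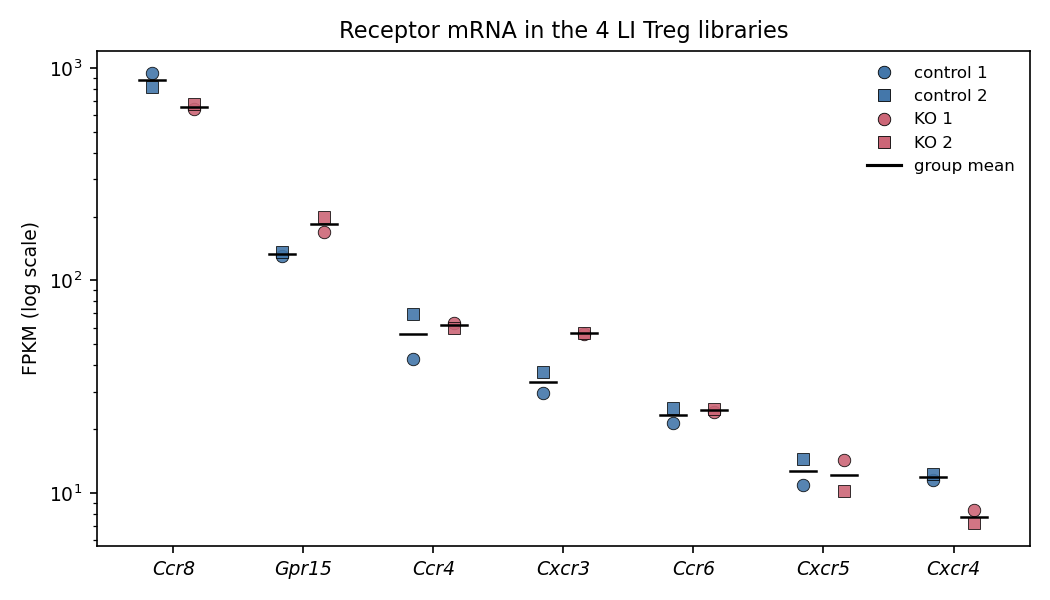
FPKM on a log axis of 7 receptors in each library, with circles for replicate 1, squares for replicate 2, blue for control, red for KO, and a bar for the group mean. Ccr8 lies between 638.4 and 944.9 FPKM, and the groups separate for Ccr8, Gpr15, Cxcr3 and Cxcr4. Ccr10 is left out because a log axis cannot show 0.

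Of the 8 receptors, 7 passed the filter of a mean above 5 FPKM in either group and entered the test, which was limma on log2(FPKM + 1) across 7639 protein-coding genes. In KO, 2 of them, Cxcr3 and Gpr15, were higher at an unadjusted p below 0.05, where 8.61% of all tested genes were higher, and 2, Ccr8 and Cxcr4, were lower, where 7.57% of all tested genes were lower. At an adjusted p below 0.05 (limma, Benjamini-Hochberg) 0 receptors were called, where 0.589% of all tested genes were called. The libraries of KO and control did not overlap for 4 of the receptors tested and overlapped for the other 3, where 47.1% of all tested genes did not overlap. The median log2 fold change of the 7 was 0.08, beside -0.004 over all genes tested. In RNA from sorted pools, fewer cells that carry a receptor and less receptor mRNA per cell cannot be told apart.

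**Figure D2:**
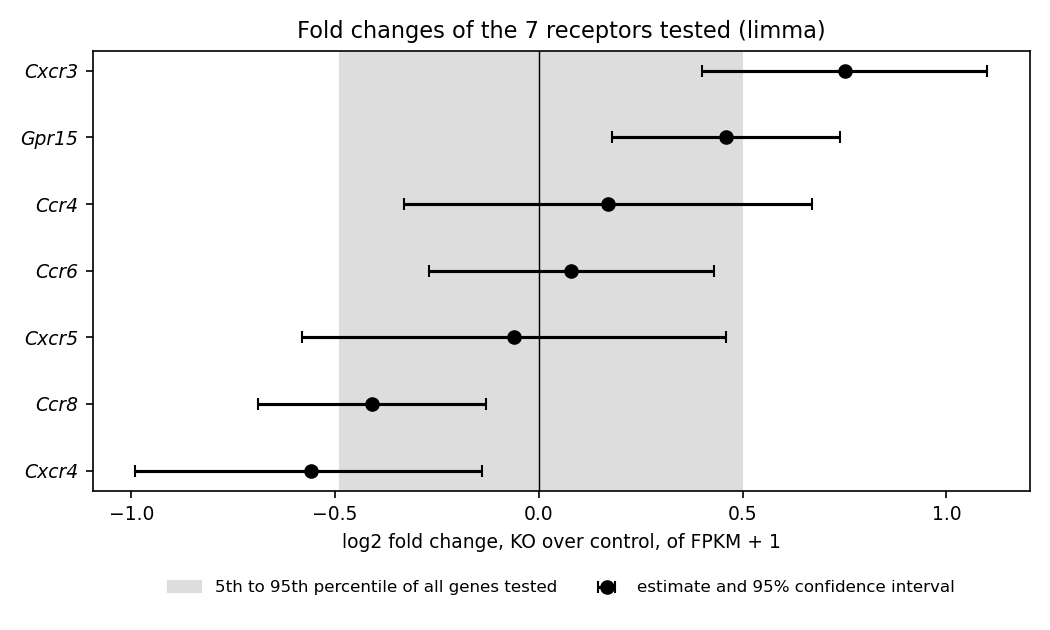
Log2(FPKM + 1) fold change of KO relative to control for the 7 receptors tested, with 95% confidence intervals from limma; the grey band spans the 5th to the 95th percentile of all genes tested, from -0.49 to 0.50. The intervals of Cxcr3 and Gpr15 lie above 0, those of Ccr8 and Cxcr4 below 0, and those of Ccr4, Ccr6 and Cxcr5 include it.

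The 250 bases before the RefSeq start of the 4 receptors that passed the unadjusted threshold are shown to set their promoters side by side (GRCm38.p6, 5′ to 3′ on the strand of the gene). Bases inside the annotated gene of the receptor were left out, which shortens 3 of them. Capitals mark matches on either strand to motifs searched, which are the CCAAT box, the GATA motif (letters AGATAA) and the AHR core (letters GCGTG) in Ccr8, and the TATA box (letters TATAAA) and the AHR core in Cxcr4. The stretches shown are chr9:120091883-120092113 (+) for Ccr8, chr16:58719071-58719122 (-) for Gpr15, chrX:101734270-101734397 (-) for Cxcr3 and chr1:128592300-128592549 (-) for Cxcr4.
Ccr8: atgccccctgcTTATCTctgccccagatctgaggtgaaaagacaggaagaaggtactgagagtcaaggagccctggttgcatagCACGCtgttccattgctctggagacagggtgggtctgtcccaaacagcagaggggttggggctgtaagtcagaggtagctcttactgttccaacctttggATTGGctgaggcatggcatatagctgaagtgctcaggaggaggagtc
Gpr15: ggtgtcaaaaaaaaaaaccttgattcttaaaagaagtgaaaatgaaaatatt
Cxcr3: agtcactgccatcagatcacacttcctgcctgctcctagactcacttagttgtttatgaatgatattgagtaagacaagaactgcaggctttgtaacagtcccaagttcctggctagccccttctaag
Cxcr4: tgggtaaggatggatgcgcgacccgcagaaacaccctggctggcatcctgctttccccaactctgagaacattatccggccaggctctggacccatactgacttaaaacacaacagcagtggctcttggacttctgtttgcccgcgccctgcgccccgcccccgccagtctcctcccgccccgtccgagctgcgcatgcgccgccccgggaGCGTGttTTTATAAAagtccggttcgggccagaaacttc

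The Cxcr4 promoter stood out in base composition. It holds 19 CpG in 250 bases, where the median of 32851 RefSeq promoters is 6 and the upper quartile is 16, whereas Ccr8 and Gpr15 each hold 1 and Cxcr3 holds 3. The share of G and C was 61.2% in Cxcr4, 53.6% in Ccr8, 48.0% in Cxcr3 and 31.6% in Gpr15. Cxcr4 alone among the receptor promoters holds TATAAA, which 12.4% of all promoters hold on either strand anywhere in the 250 bases. In Cxcr4 it lies on both strands over overlapping bases, and on the strand of the gene 25 to 30 bases before the start. CCAAT was found in Ccr8 and, 2 times, in the full 250 bases of Gpr15, and in 33.8% of all promoters. GCGTG was found in Ccr8, Cxcr3 and Cxcr4, in 28.2% of all promoters, and AGATAA in Ccr8 and Ccr6, in 10.0% of all promoters. TGTGGT, the RUNX motif, was found in Gpr15 and Cxcr3, in 14.0% of all promoters, and TGANTCA, the AP-1 motif, in Gpr15 and Ccr4, in 6.7% of all promoters. Ccr6 has 2 annotated promoters, which hold AGGTCA (14.0% of all promoters) and TTCNNNGAA (7.0%) in addition to AGATAA, and AGGTGTG, a T-box motif held by 5.1% of all promoters, was in none of the 7 receptor promoters. All motifs were searched on both strands, and they were picked with the sequences in view. Base composition and motifs refer to the full 250 bases. All matches in Gpr15 and Cxcr3 lie wholly or partly in the bases left out above, which are inside the annotated gene. Ccr10 and Cxcr5 had no entry.

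Cxcr3, the receptor for the interferon-induced chemokines CXCL9, CXCL10 and CXCL11, showed the largest difference among the receptors tested. Its level was 29.43 and 37.3 FPKM in the controls and 56.18 and 56.89 FPKM in KO. Both KO libraries lay above both controls, and the KO pair was closer together than the control pair (33.36 ± 5.56 against 56.53 ± 0.502 FPKM, mean ± SD, n = 2 each). The log2 fold change was 0.75 with an SE of 0.15 and a 95% interval of 0.40 to 1.10, a ratio of means of 1.69 (limma, unadjusted p = 0.00126, adjusted p = 0.0821). Leaving out each library in turn gave log2 fold changes of 0.59 to 0.92, all with an unadjusted p below 0.05. The limma adjusted p ranged from 0.059 to 0.451 over the other settings tried, apart from a fit that paired the libraries across their numbers. Cxcr3 has 2 coding exons and lies on chromosome X (GRCm38, chrX:101731535-101734269, minus strand).

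Gpr15, the colon-homing receptor for the epithelial peptide GPR15LG, came second in level among the 8. Its level was 130.6 and 135.9 FPKM in the controls and 169.5 and 198.7 FPKM in KO. The groups did not overlap, and here the KO pair was the wider (133.2 ± 3.71 against 184.1 ± 20.6 FPKM, mean ± SD, n = 2 each). The log2 fold change was 0.46 with an SE of 0.12 and a 95% interval of 0.18 to 0.74, a ratio of means of 1.38 (limma, unadjusted p = 0.00619, adjusted p = 0.144). Without KO 2 it was 0.34 with an unadjusted limma p of 0.0684, and over the same settings the adjusted p ranged from 0.142 to 0.642. Gpr15 (chr16:58717433-58719070, minus strand) is a gene of 1638 bases in a single exon, and 204 of these overlap Cpox on the opposite strand. Cpox, an enzyme gene of heme synthesis, was 3.5 and 2.87 FPKM in the controls and 3.84 and 6.33 FPKM in KO, and since RSEM was run with its default parameters, which do not use strand, reads from the shared bases cannot be told apart. The nearest tested gene on one side, Cldnd1 at 8.8 kb, was 758.4 and 716.6 FPKM in the controls and 899.1 and 927.6 FPKM in KO (log2 fold change 0.31, limma unadjusted p = 0.0201, adjusted p = 0.222).

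Ccr8, the receptor for CCL1 and, in mouse, CCL8, was lower in KO. Its level was 944.9 and 810.0 FPKM in the controls and 638.4 and 679.2 FPKM in KO. Both KO libraries lay below both controls (877.4 ± 95.4 against 658.8 ± 28.8 FPKM, mean ± SD, n = 2 each). The log2 fold change was -0.41 with an SE of 0.12 and a 95% interval of -0.69 to -0.13, so that the KO mean was 0.751 of the control mean (limma, unadjusted p = 0.0101, adjusted p = 0.177). Without KO 1 it was -0.36 with an unadjusted limma p of 0.0631, and over the same settings the adjusted p ranged from 0.119 to 0.572. Ccr8 (chr9:120092114-120094906, plus strand) lies 9.47 Mb from Setd2 and Ccr4 lies 3.87 Mb from it. KO and control differ by design in the copies of the floxed Setd2 chromosome, and within 20 Mb of Setd2 24.2% of 153 genes passed the unadjusted threshold, beside 16% of 7486 genes elsewhere. For these 2 receptors the loss of Setd2 and the origin of the linked segment cannot be told apart. The tested neighbours of Ccr8, Slc25a38 at 15.5 kb and Csrnp1 at 107.5 kb, had log2 fold changes of -0.24 and -0.72 that missed the threshold (limma, unadjusted p = 0.141 and 0.125).

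Cxcr4, the receptor for CXCL12, was low and lower still in KO. Its level was 11.5 and 12.3 FPKM in the controls and 8.28 and 7.21 FPKM in KO. The groups did not overlap (11.9 ± 0.566 against 7.745 ± 0.757 FPKM, mean ± SD, n = 2 each). The log2 fold change was -0.56 with an SE of 0.18 and a 95% interval of -0.99 to -0.14, and the KO mean was 0.651 of the control mean (limma, unadjusted p = 0.0158, adjusted p = 0.213). It was -0.52 without control 2 and -0.47 without KO 2, with unadjusted limma p of 0.0662 and 0.0907, and the adjusted p ranged from 0.183 to 0.67 over the same settings. Cxcr4 lies at chr1:128588199-128592293 on the minus strand, and its nearest tested neighbour Dars, at 170.8 kb, had a log2 fold change of 0.01.

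The other 3 receptors tested overlapped between the groups. Ccr4, the receptor for CCL17 and CCL22, was 42.73 and 69.44 FPKM in the controls and 63.22 and 59.62 FPKM in KO, and both KO values lay between the 2 control values. Its log2 fold change was 0.17 with a 95% interval of -0.33 to 0.67 (limma, unadjusted p = 0.456, adjusted p = 0.759). The estimate turned on the control libraries, with -0.18 without control 1 and 0.51 without control 2, the latter at an unadjusted limma p of 0.0107 and an adjusted p of 0.221. Next to Ccr4 (chr9:114490316-114504916, minus strand), Glb1, the gene of lysosomal beta-galactosidase at 15.4 kb, was 29.57 and 35.28 FPKM in the controls and 58.14 and 59.34 FPKM in KO, without overlap. Its log2 fold change of 0.84 missed the adjusted threshold (limma, unadjusted p = 0.000384, adjusted p = 0.0565). Stretches of 102 to 134 bases of Ccr4 transcripts matched transcripts of 4 other genes at 90% identity or more, and reads from them may be shared.

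Ccr6, the receptor for CCL20, was 21.27 and 25.12 FPKM in the controls and 24.07 and 24.89 FPKM in KO. Its KO values again lay between the control values, and its log2 fold change was 0.08 with a 95% interval of -0.27 to 0.43 (limma, unadjusted p = 0.61, adjusted p = 0.85). Leaving out control 1 gave -0.04. Stretches of 100 to 122 bases of Ccr6 transcripts matched transcripts of 25 other genes at 90% identity or more, and reads from them may be shared.

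Cxcr5, the receptor for the follicular chemokine CXCL13, was 10.93 and 14.47 FPKM in the controls and 14.23 and 10.17 FPKM in KO. Each group held 1 lower and 1 higher library, and the log2 fold change was -0.06 with a 95% interval of -0.58 to 0.46 (limma, unadjusted p = 0.798, adjusted p = 0.936). Leaving out 1 library at a time gave values from -0.28 to 0.165. Cxcr5 (chr9:44511787-44561877, minus strand) lies 65.97 Mb from Setd2 and shares 110 bases with Bcl9l on the opposite strand, which was at 1.16 to 1.38 FPKM. Ccr10 (chr11:101172997-101175443, minus strand) lies wholly inside Cntnap1, which was listed at 0 in all 4 libraries.

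**Figure D3:**
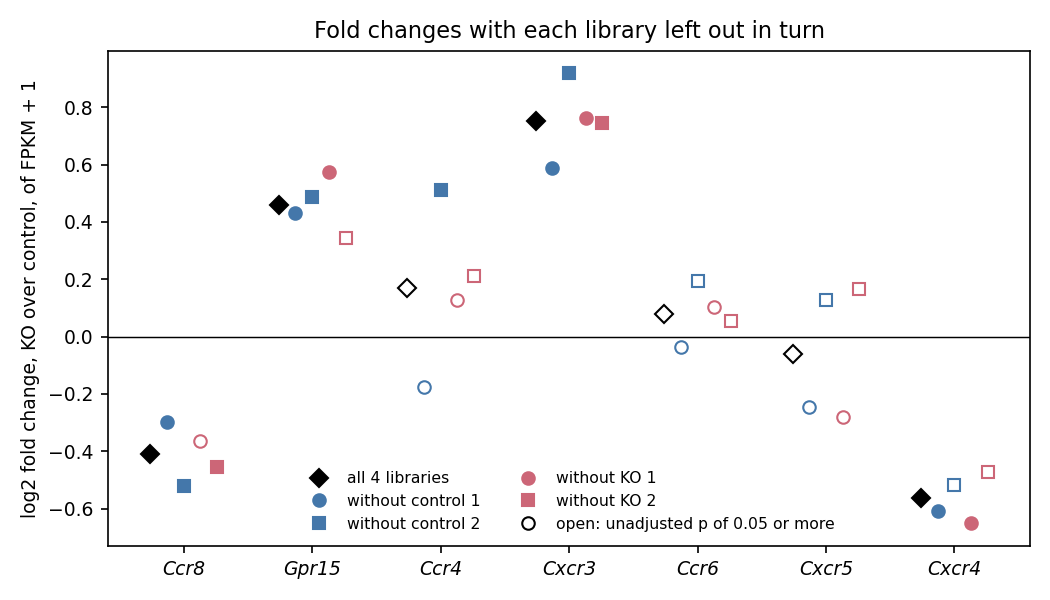
Log2(FPKM + 1) fold change of KO relative to control with all 4 libraries (black diamonds) and with each library left out (blue, a control library; red, a KO library), filled where the unadjusted p of limma was below 0.05. Cxcr3 stays filled throughout, between 0.59 and 0.92, whereas Ccr4 moves from -0.18 to 0.51.

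The make-up of the receptor mRNA restates the single levels as shares of their sum and is no further evidence. Summed over the 8 receptors, FPKM was 1191 and 1104 in the controls and 973.9 and 1037 in KO. Ccr8 made up 79.3% and 73.3% of this sum in the controls and 65.6% and 65.5% in KO, and the groups did not overlap. Gpr15 made up 11% and 12.3% in the controls and 17.4% and 19.2% in KO. Cxcr3 made up 2.47% and 3.38% in the controls and 5.77% and 5.49% in KO. Shares of one sum depend on each other, so that a lower share of Ccr8 raises the other shares.

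**Figure D4:**
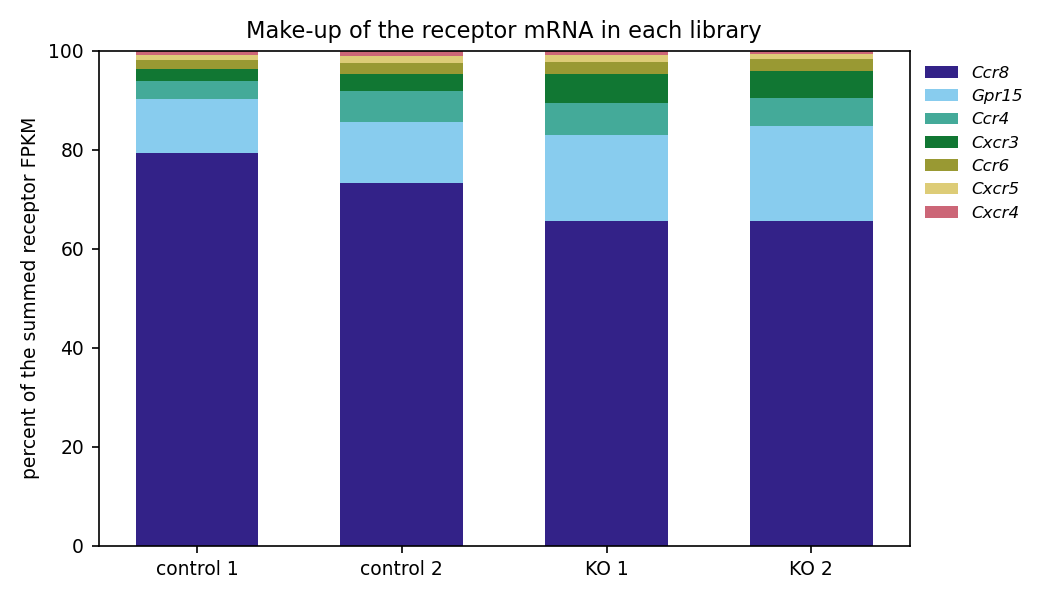
Share of each receptor in the summed FPKM of the 8 receptors, in percent, as stacked bars for the 4 libraries. The dark Ccr8 segment reaches 79.3% and 73.3% in the controls and 65.6% and 65.5% in KO, and the Gpr15 and Cxcr3 segments are taller in both KO libraries.

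A ratio between 2 receptors of the same library is unchanged by a linear factor for that library, though not by a normalization based on ranks. The ratio of Gpr15 to Ccr8 was 13.8% and 16.8% in the controls and 26.5% and 29.2% in KO, 1.83 times as high on the geometric mean. The ratio of Cxcr3 to Ccr8 was 3.11% and 4.60% in the controls and 8.80% and 8.38% in KO, 2.27 times as high. For both ratios the 2 KO libraries lay above the 2 controls, with an exact two-sided permutation p of 0.333, the smallest that 2 against 2 libraries allow. That order was fixed by the single levels, with Gpr15 and Cxcr3 higher and Ccr8 lower in both KO libraries. It is therefore a restatement of them and no further evidence. Ccr4 to Ccr8 and Ccr6 to Ccr8 were also higher in both KO libraries, by 1.5 and 1.41 times, with the same exact p of 0.333. Both rested on the control libraries: the log2 difference of Ccr4 to Ccr8 was 0.58 with all libraries, 0.12 without control 1 and 1.04 without control 2, and that of Ccr6 to Ccr8 was 0.49 with all libraries, 0.26 without control 1 and 0.72 without control 2. Gpr15 to Cxcr3 was 4.44 and 3.64 in the controls and 3.02 and 3.49 in KO, without overlap (exact permutation p = 0.333), and its log2 difference of -0.31 was -0.17 without control 1 and -0.20 without KO 1. Cxcr4 to Ccr8 was 1.22% and 1.52% in the controls and 1.30% and 1.06% in KO, which overlap (exact permutation p = 0.667), and its log2 difference of -0.21 was -0.37 without control 1, -0.05 without control 2, -0.36 without KO 1 and -0.07 without KO 2.

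The likeness of 2 patterns across the 4 libraries is given as the root mean square difference of their log2(FPKM + 1) values, each centred on its own mean. Among the receptors tested, Ccr8 and Cxcr4 were 0.164 apart, Ccr4 and Ccr6 0.174, Cxcr3 and Gpr15 0.191, Ccr6 and Cxcr5 0.195, Ccr4 and Cxcr5 0.204 and Ccr6 and Gpr15 0.21. Cxcr3 and Cxcr4 were the farthest apart, at 0.667, and each receptor had genes nearer to it than any other receptor. Over all tested genes, the patterns nearest to Ccr8 were those of Hmgb3, a chromatin protein gene, and Caml, each 0.017 away, and 31 genes lay within 0.05. Nearest to Gpr15 were Mynn (0.006) and Ints14, an Integrator subunit gene (0.013), with 35 genes within 0.05. Cxcr3 had few like it, with 3 genes within 0.05, of which the carbonic anhydrase gene Car2 (0.027) and the biliverdin reductase gene Blvrb (0.029) were the nearest. Cxcr4 was nearest to Nsun5 (0.008), an RNA methyltransferase gene, and Rcl1 (0.014). Ccr6, whose values vary little, had 121 genes within 0.05, with Vps13b (0.005) and Tnfrsf18 (0.01), the gene of the Treg cell receptor GITR, nearest. Cxcr5 was nearest to Rexo1 (0.009) and Arhgef7 (0.018), and Ccr4 to Trabd (0.039) and Gpld1 (0.043). With 4 libraries such likeness is a description.

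Ligands of these receptors were present in the same RNA. Of 14 names listed, 13 were in the table and 4 were tested, of which 2 were higher and 1 lower in KO at an unadjusted p below 0.05, and 1 was called at an adjusted p below 0.05, where all tested genes gave 8.61% higher, 7.57% lower and 0.589% adjusted. Ccl8, a ligand of mouse CCR8, was 28.19 and 20.29 FPKM in the controls and 62.47 and 72.77 FPKM in KO, and it rose without overlap (log2 fold change 1.46, SE 0.18, limma adjusted p = 0.0272). Ccr8 itself was lower in the same KO libraries. Ccl1, the other CCR8 ligand, was 7.81 and 5.42 FPKM in the controls and 8.08 and 11.25 FPKM in KO (log2 fold change 0.49, limma unadjusted p = 0.0865, adjusted p = 0.386).

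Ccl20, the CCR6 ligand and the most abundant ligand in KO, was 146.8 and 144.5 FPKM in the controls and 192.1 and 232.5 FPKM in KO. The groups did not overlap (log2 fold change 0.53, SE 0.13, limma unadjusted p = 0.00345, adjusted p = 0.117), while the Ccr6 groups did. Cxcl10, a CXCR3 ligand, was 159.4 and 160.4 FPKM in the controls and 108.4 and 114.8 FPKM in KO (log2 fold change -0.52, SE 0.11, limma unadjusted p = 0.00176, adjusted p = 0.0869). Cxcl10 was thus lower in the libraries in which Cxcr3 was higher. The CCR4 ligands Ccl17 and Ccl22, the CXCR4 ligand Cxcl12, the CXCR5 ligand Cxcl13, the other CXCR3 ligands, the CCR10 ligands and the GPR15 ligand gene 2610528A11Rik had means below 5 FPKM and were not tested. Such ligands are also made by cells other than Treg cells, and the origin of this mRNA was not tested.

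**Figure D5:**
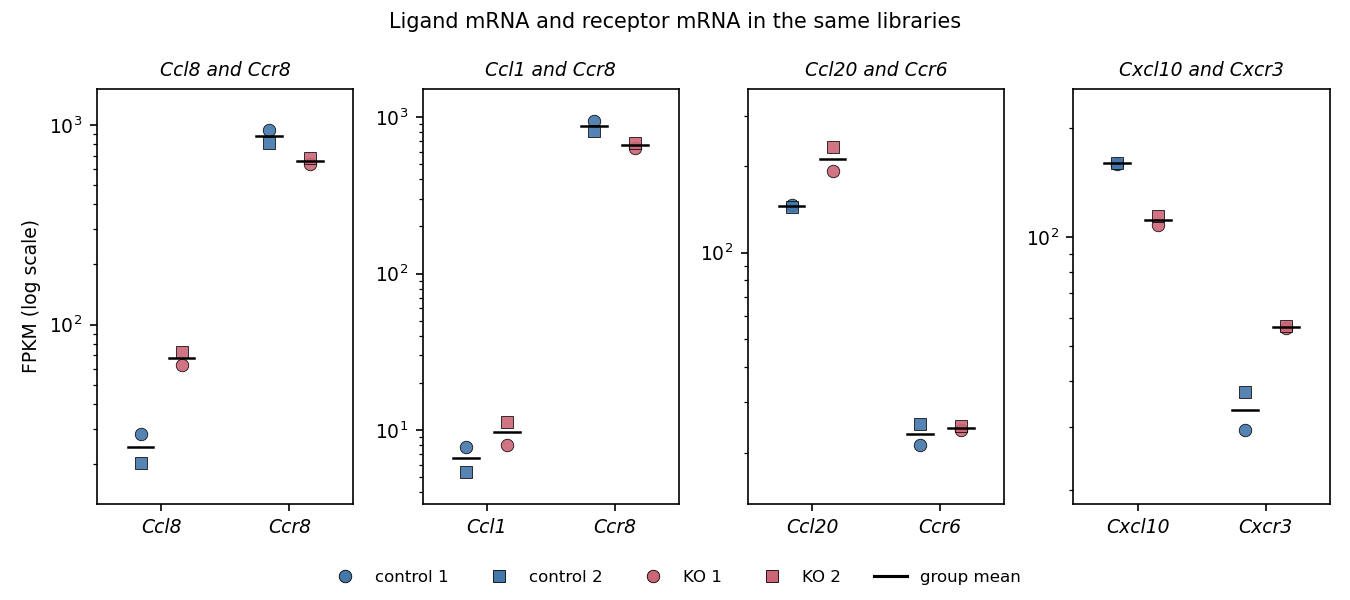
FPKM on a log axis of 4 ligand genes, each beside a receptor that binds its product, in each library (circles, replicate 1; squares, replicate 2; blue, control; red, KO; bars, group mean). Ccl8 is higher and Ccr8 lower in both KO libraries, Cxcl10 is lower and Cxcr3 higher, and Ccl20 separates the groups where Ccr6 does not.

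Of 17 other chemokine and atypical receptors, 8 were tested, with 2 higher and 2 lower in KO at an unadjusted p below 0.05, 2 called at an adjusted p below 0.05 (where all tested genes gave 8.61% higher, 7.57% lower and 0.589% adjusted), and a median log2 fold change of -0.04. Apart from those of the chromosome 9 cluster, Ccr7, which guides cells toward lymphatics and lymph nodes, was the only member called at an adjusted p below 0.05. It was 541.8 and 586.6 FPKM in the controls and fell to 318.8 and 235.8 FPKM in KO (log2 fold change -1.04, limma adjusted p = 0.0475), and so lay below Ccr8 in every library. The call of Ccr7 did not hold with no filter on low values, where 0 genes were called at an adjusted p. Other alternative fits were not read out for Ccr7.

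Of 38 names for the signalling steps behind the receptors, 36 were in the table and 31 were tested, with 1 higher, 3 lower and 0 called at an adjusted p below 0.05 (where all tested genes gave 8.61% higher, 7.57% lower and 0.589% adjusted), and a median log2 fold change of 0.0. Rgs16, which speeds the shut-off of G protein signals, was 37.75 and 45.31 FPKM in the controls and 26.18 and 22.99 FPKM in KO (log2 fold change -0.73, limma unadjusted p = 0.00168, adjusted p = 0.0865). Rgs2, of the same family, was 556.9 and 564.8 FPKM in the controls and 422.4 and 342.6 FPKM in KO (log2 fold change -0.56, limma unadjusted p = 0.00293, adjusted p = 0.11). Neither gene overlapped between the groups. Elmo1, a partner of DOCK2 in activating Rac, had a log2 fold change of -0.34, and Gng2, a G protein gamma subunit gene, one of 0.32 (limma, adjusted p = 0.222 and 0.271). Rgs1, the most abundant, was at 4710 and 4437 FPKM in each group. Many ranks carry the same value in every library, so this exact repeat may reflect shared ranks.

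Of 15 genes of tissue exit, entry and retention, 13 were tested, with 2 higher, 4 lower and 0 called at an adjusted p below 0.05 (where all tested genes gave 8.61% higher, 7.57% lower and 0.589% adjusted), and a median log2 fold change of -0.25. Genes lower at the unadjusted threshold included Cd44, a hyaluronan receptor gene (-0.53), Ptger4, a prostaglandin E2 receptor gene (-0.68), and Itgae, the gene of the CD103 integrin chain that binds E-cadherin (-0.56), with limma adjusted p of 0.109, 0.132 and 0.168. Selplg, the gene of the selectin ligand PSGL-1 and the most abundant of the group, and Itgb1 had log2 fold changes of 0.37 and 0.34 (limma, adjusted p = 0.262 and 0.283).

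Of 16 transcription factor genes of T cells, 14 were tested, with 1 higher, 3 lower and 0 called at an adjusted p below 0.05 (where all tested genes gave 8.61% higher, 7.57% lower and 0.589% adjusted), and a median log2 fold change of -0.13. Rora, a nuclear receptor gene, was 843.7 and 834.4 FPKM in the controls and 589.3 and 563.1 FPKM in KO, without overlap (log2 fold change -0.54, limma unadjusted p = 0.00099, adjusted p = 0.0741). Stat5a, downstream of interleukin 2, had a log2 fold change of -0.45 (limma, adjusted p = 0.203), and Stat3, the most abundant, one of -0.02 (limma, adjusted p = 0.97). Tbx21, the factor of type 1 responses that accompanies Cxcr3 in T cells, was at 2.13 to 4.32 FPKM, and Bcl6, which accompanies Cxcr5, at 3.7 to 4.85 FPKM, both too low for the test.

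Markers of other cells were present beside these receptors. Summed over 7 B and plasma cell genes, the level was 679 and 869 FPKM in the controls and 748 and 770 FPKM in KO, nearly all from immunoglobulin genes and Jchain, while Ms4a1, the gene of the B cell protein CD20, was at most 0.63 FPKM. Cxcr4, Cxcr5 and Ccr10 are also receptors of B lineage cells. The 6 myeloid markers summed to 166 to 187 FPKM in the controls and 161 to 211 FPKM in KO. Of the 4 tested, 0 passed the unadjusted threshold, where 8.61% of all tested genes were higher and 7.57% lower. The groups overlapped in both sums.

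The sums of 3 marker groups of other cells did not overlap between KO and control, where 47.1% of all tested genes did not overlap. In each of these groups 1 gene was tested, and it made up most of the sum. Of the 5 epithelial markers (29.0 to 30.9 FPKM in the controls, 20.3 to 21.4 in KO) Epcam was lower, of the 4 of stroma and endothelium (35.8 to 37.4 in the controls, 43.6 to 50.4 in KO) Pecam1 was higher, and of the 3 of mast cells (16.6 to 18.8 in the controls, 12.4 to 12.5 in KO) Kit was lower, each at an unadjusted p below 0.05. Over all tested genes, 8.61% were higher and 7.57% lower at this threshold. Epcam was at 19.58 to 30.81 FPKM, Pecam1 at 34.65 to 49.25 FPKM and Kit at 11.39 to 18.83 FPKM over the libraries. The other markers of these 3 groups, Krt8, Col1a1 and Cpa3 among them, were at or below 1 FPKM in every library. The 5 markers of CD8 T, NK and gamma-delta T cells summed to 2.69 to 4.65 FPKM in the controls and 3.18 to 3.38 FPKM in KO. The 7 markers of the sorted cells summed to 2430 to 2620 FPKM in the controls and 3000 to 3120 FPKM in KO, without overlap and mostly from Ctla4. Of the 6 tested, Ctla4 was higher and Ikzf2 lower in KO at an unadjusted p below 0.05, beside the same shares of all tested genes. The part of these differences in the receptor values was not tested.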

How the data were processed

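RNA-seq was compared between 2 KO and 2 control LI Treg libraries. The authors aligned reads with STAR 2.5 to GRCm38 and quantified genes with RSEM 1.2 (default parameters), and the deposited values are FPKM per gene and library. Of the top 5000 ranks, 2172 carry the same value in all 4 libraries and the rest differ by at most 0.173%, close to what quantile normalization gives; no source used here names this step.

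Protein-coding genes with a mean above 5 FPKM in either group were fitted with limma 3.58.1 (R 4.3.3) on log2(FPKM + 1) with a variance trend; the Benjamini-Hochberg adjustment ran over all 7639. Fold changes on this scale understate those of low genes. Scripts were tested on simulated data. Ratios were compared by exact permutation. The authors call the pools biological replicates and drew them from littermate mice. They do not say that the pools were processed separately, so p-values measure the spread between these libraries only. Coordinates are those of GENCODE M21 (53274 of 53379 identifiers matched) and promoters are from RefSeq (GRCm38.p6).

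The receptors and gene lists were chosen with earlier results of these data known. Genes named were the receptors, Setd2, overlapping, neighbouring and most similar genes, and from each list up to 4 per direction with the smallest p and no overlap plus the most abundant. The values of some genes that these lists hold are not reported here.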

Additional observations from a re-analysis of the deposited data

How the results depend on the processing

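Over the alternatives tried, the count of receptors at an unadjusted p below 0.05 was 4 in the reported fit and 2 to 4 with each library left out, the lowest without KO 2; it was 3 without genes within 20 Mb of Setd2, which leaves out Ccr8 and Ccr4. At an adjusted p it stayed at 0 under each alternative except the crossed pairing. Over all genes the unadjusted count was 1236 as reported, 1946 with no filter on low values and 644 to 1247 with each library left out. The adjusted count was 45 as reported, 27 with a minimum of 1 FPKM, 0 with no filter, where 1946 genes passed the unadjusted threshold, 13 with all gene types, 3 without the variance trend, 28 without genes within 20 Mb of Setd2, and 2 to 43 with each library left out (2 without KO 1, 3 without KO 2). The cause of these shifts was not tested.

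With each library left out, log2 fold changes ran from -0.036 (without control 1) to 0.194 for Ccr6, from -0.175 (without control 1) to 0.513 for Ccr4, and from -0.282 to 0.165 for Cxcr5 (0.129 without control 2, 0.165 without KO 2), which turns their direction. Where 1 library was left, it was assumed to vary like the other group. Ratios between receptors kept their direction under each alternative, but without 1 library the log2 difference moved by over 1.5 times for those of Ccr4, Ccr6 and Cxcr4 to Ccr8 and of Gpr15 to Cxcr3.

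Same-numbered libraries deviated in opposite directions (r = -0.305 across 7639 genes), and the numbers were not taken as pairs. Under a replicate block 796 genes passed unadjusted and 27 adjusted, and the count of receptors stayed at 4 and 0. Crossing the numbers, an alternative chosen after seeing the data, gave 1991 and 465 genes, and 3 receptors adjusted.

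With 2 libraries a group and no fragment counts, differences smaller than the intervals given could not be resolved.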
